A study of Mus musculus with 6 samples.

Results

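The genes described here are 9 mouse genes of epithelial surfaces and of the stomach: Msln, Muc1, Muc16, Olfm4, Tspan8, Atp4a, Atp4b, Tff2 and Tff3. They were chosen because several of them were known to be lower in islets whose beta cells lack Neurod1, and close relatives were added by name. The difference between the genotypes therefore chose them, and for these genes it is given as a description, without a p-value. Of the 9 genes, 8 were found among the 23284 genes of the count tables, and Muc16 was not analysed here. Of those 8, 6 had enough counts to enter the comparison, while Atp4b and Tff3 did not.

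The 6 bulk RNA-seq libraries were made from isolated pancreatic islets of mice aged 12 weeks. The knockout group (libraries 4, 5 and 6) had the genotype Neurod1-floxed/floxed; Rip-Cre+, in which Cre recombinase is driven by the rat insulin promoter and removes the floxed gene in beta cells. The control group (libraries 7, 10 and 16) was Neurod1-floxed/floxed without Cre, so effects of the Cre transgene and of the deletion cannot be told apart, and all mice carried the floxed alleles on the strain given as C56BL/J. Whether the libraries of a group came from separate animals is not said in the labels, so a p-value here reflects spread between libraries, which may be technical. Total counts ranged from 12206393 to 20412435 per library. Neurod1 had 389 to 463 counts in the knockout and 2049 to 3839 in the control libraries, or 28.4 to 31.3 and 141 to 198 counts per 1e+06 counts (CPM). The islet hormone genes Ins1, Ins2, Iapp, Gcg, Sst, Ppy and Ghrl made up 21.1% to 24.6% of control and 16.1% to 17.9% of knockout counts, as the tissue label implies. For 32 acinar marker genes the share of counts was 5.79%, 4.84% and 1.63% in control libraries 7, 10 and 16, against 0.564%, 1.68% and 1.23% in knockout libraries 4, 5 and 6. In whole islets, fewer cells of a type and less RNA per cell cannot be told apart.

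Mesothelin (Msln) is a cell surface protein held by a lipid anchor and is best known from the mesothelium that lines body cavities, where the giant mucin Muc16 binds it. Muc1 is a mucin that spans the membrane of glandular epithelium, and Tspan8 is a tetraspanin, a small protein with 4 membrane spans that organises other surface proteins. Olfm4 is a secreted olfactomedin glycoprotein known as a marker of intestinal stem cells. Atp4a and Atp4b encode the catalytic and the accessory subunit of the gastric proton pump, which acidifies the stomach by exchanging protons for potassium. Tff2 and Tff3 encode trefoil peptides, small secreted proteins that are released with mucus, Tff2 mostly in the stomach and Tff3 in the intestine.

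Neurod1 is a basic helix-loop-helix factor, and factors of this class bind E-boxes, DNA sites with the letters CANNTG. The RefSeq promoter table (build GRCm38.p6) held 5 of the 9 genes, of which Muc1, Olfm4, Tspan8 and Atp4a also had values. Their 250 bases upstream of the start are shown, 5′ to 3′ on the gene's strand, because these 4 genes were lower together in the knockout. The regions are chr7:30711959-30712208 for Atp4a, chr14:80000052-80000301 for Olfm4, chr3:89228806-89229055 for Muc1 and chr10:115817034-115817283 for Tspan8, all on the + strand. Capitals mark every CANNTG match.
Atp4a: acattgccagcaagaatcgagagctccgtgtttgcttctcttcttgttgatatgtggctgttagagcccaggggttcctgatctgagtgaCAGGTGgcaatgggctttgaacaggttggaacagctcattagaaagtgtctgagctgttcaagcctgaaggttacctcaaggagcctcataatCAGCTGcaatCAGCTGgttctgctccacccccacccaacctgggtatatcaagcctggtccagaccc
Olfm4: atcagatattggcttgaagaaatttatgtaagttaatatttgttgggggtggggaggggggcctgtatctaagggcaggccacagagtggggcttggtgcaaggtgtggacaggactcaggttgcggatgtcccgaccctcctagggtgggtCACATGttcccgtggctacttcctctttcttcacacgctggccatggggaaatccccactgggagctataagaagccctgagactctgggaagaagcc
Muc1: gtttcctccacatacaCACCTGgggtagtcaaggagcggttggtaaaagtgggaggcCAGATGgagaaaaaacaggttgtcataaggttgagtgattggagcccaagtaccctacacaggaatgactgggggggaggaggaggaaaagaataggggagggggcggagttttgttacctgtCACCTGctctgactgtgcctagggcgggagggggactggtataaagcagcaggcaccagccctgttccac
Tspan8: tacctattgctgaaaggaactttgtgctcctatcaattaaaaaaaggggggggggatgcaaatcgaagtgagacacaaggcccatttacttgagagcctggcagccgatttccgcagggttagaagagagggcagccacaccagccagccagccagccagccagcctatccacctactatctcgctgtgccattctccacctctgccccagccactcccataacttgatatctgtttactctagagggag
CANNTG reads the same on both strands apart from its middle bases. In Atp4a it matched as CAGGTG at 160 bases and as CAGCTG at 67 and 57 bases upstream of the start. In Olfm4 it matched once, as CACATG at 98 bases. In Muc1 it matched as CACCTG at 234 and 70 bases and as CAGATG at 193 bases. In the Tspan8 window these letters were not found. Of the 5 promoters 4 held CANNTG, as did 66.2% of 32851 promoters searched over the same length. The narrower CAGATG, searched on both strands and contained in the wider motif, was in 2 of the 5 (Muc1 and Muc16) and in 14.4% of all. These are letter matches, and binding was not measured.

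Msln showed the largest difference of the group. It had 637, 688 and 382 counts in control libraries 7, 10 and 16, which is 32.9, 33.7 and 26.2 CPM. Knockout libraries 4, 5 and 6 had 8, 12 and 7 counts, or 0.491, 0.804 and 0.562 CPM. The groups lay far apart, since the lowest control library was 32.6-fold above the highest knockout library. The log2 fold change was -5.63 (SE 0.20), from 31.0 ± 4.13 to 0.619 ± 0.164 CPM (SD, n = 3 each).

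The nearest relative of Msln is Mslnl, a mesothelin-like gene that lies next to it on the chromosome in the RefSeq annotation of GRCm38.p6. Mslnl was not among the chosen genes and it fell as well. It had 34, 29 and 23 counts in the control and 0, 1 and 3 in the knockout libraries, so every control library was above every knockout library. Over the group totals of 86 and 4 counts the ratio was 17.3 (95% exact interval 6.51 to 64.8, counting error only). The edgeR quasi-likelihood test gave an adjusted p of 0.00302, which was 0.0529 when the mean log2 CPM of the acinar markers entered the fit as a covariate. The sources used here do not give how reads at the border of neighbouring genes were assigned or whether strand was used, and the part of either in the Mslnl counts was not tested. The other mesothelin relatives are genes of the inner ear. Strc, which encodes stereocilin, rose, with 1, 1 and 9 counts in control and 39, 23 and 28 in knockout libraries (adjusted p = 0.0134). Its log2 fold change was 3.24, and with the acinar covariate it was 1.83 and missed the threshold (adjusted p = 0.229). Otoa, which encodes otoancorin, was at -1.30 (SE 0.41, adjusted p = 0.0522) with all 6 libraries. It passed with DESeq2 (0.0136), limma-voom (0.0464) and without knockout library 6 (0.016), and it was at -0.44 with the acinar covariate (adjusted p = 0.683).

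Of 16 mesothelial cell markers, 15 had at least 1 count and 9 could be tested, of which 0 passed by edgeR. Over all genes 24.4% passed in either direction. DESeq2 called 1 of these markers, Slpi, higher and none lower, as did edgeR without robust estimation or without knockout library 5 or 6. The summed level of the markers was 14.2 to 20.6 CPM in control and 13.7 to 24.4 CPM in knockout libraries, so the ranges overlapped. Calb2 was at 0, and the defining markers Upk3b (0.331 ± 0.0678 CPM in control, SD, n = 3) and Wt1 (0.349 ± 0.193 CPM) were near 0. Upk3b had 5, 8 and 5 counts in control and 2, 1 and 0 in knockout libraries, too few to be tested. The part of mesothelial cells in the Msln values was not tested. In the knockout Wt1 was at 0.996 ± 1.08 CPM, most of it from knockout library 4 with 36 counts.

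**Figure D1:**
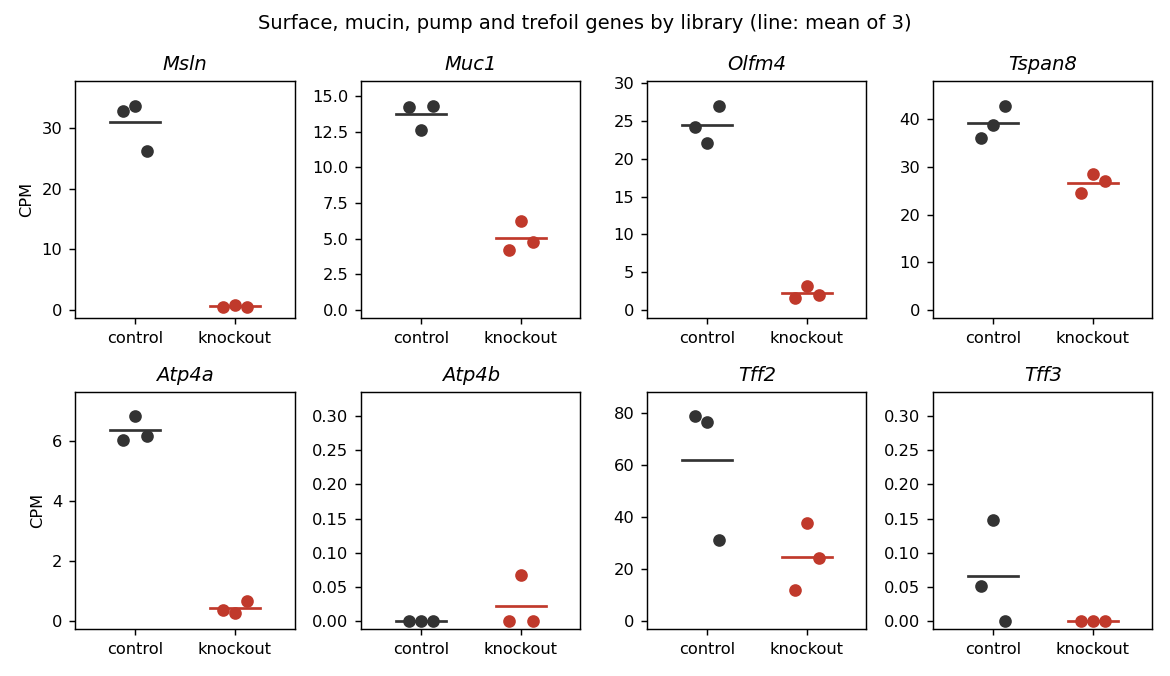
CPM of each gene in the 3 control (black) and 3 knockout (red) libraries; horizontal lines are group means, and each panel has its own linear axis. Msln, Muc1, Olfm4, Tspan8 and Atp4a show no overlap between the groups, Tff2 overlaps, and Atp4b and Tff3 stay below 0.15 CPM.

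Olfm4 was the next secreted or surface gene in size of difference. Control libraries 7, 10 and 16 had 24.2, 22.1 and 27.0 CPM, and knockout libraries 4, 5 and 6 had 1.54, 3.22 and 1.93 CPM. Every knockout library was below every control library, with a gap of 6.88-fold between the closest pair. The log2 fold change was -3.45 (SE 0.23), and the mean went from 24.5 ± 2.47 to 2.23 ± 0.879 CPM (SD, n = 3 each). Knockout library 5, the highest of its group for Olfm4, Msln, Muc1, Tspan8 and Tff2 and the lowest for Atp4a, was also the knockout library with the largest acinar share.

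The olfactomedin relatives did not share a call. Of 13 listed, 11 could be tested, 1 rose and 0 fell, and at an adjusted p under 0.05 DESeq2 called 2 lower. Over all genes edgeR called 11.8% higher and 12.6% lower, and DESeq2 called 11.4% lower. Lphn3, a latrophilin adhesion receptor with an olfactomedin domain, rose from 25.2 ± 3.01 to 55.8 ± 2.01 CPM (SD, n = 3 per group; log2 change 1.14, SE 0.10, adjusted p = 9.97e-05 by edgeR). The median log2 fold change of the olfactomedin relatives was -0.55, against -0.0075 for all genes tested.

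Olfm4 is used as a stem cell marker in the intestine, so a list of intestinal stem cell and Wnt pathway genes was examined. Of 12 genes 11 could be tested, 2 rose, 5 fell and 4 did not pass (edgeR, all genes background 11.8% higher and 12.6% lower). Axin2, a feedback inhibitor and target of Wnt signalling, fell from 13.2 ± 1.10 to 5.11 ± 0.863 CPM (SD, n = 3 per group; log2 change -1.37, SE 0.16). Rnf43, a ubiquitin ligase that removes Wnt receptors, fell from 3.04 ± 0.512 to 0.871 ± 0.292 CPM (-1.82, SE 0.32), and the RNA-binding protein gene Msi1 was lower at -1.11 (SE 0.16). Lgr4, a receptor for R-spondins, rose from 36.6 ± 5.27 to 75.6 ± 1.92 CPM (1.05, SE 0.10). Lgr5, the stem cell receptor itself, was at 0.778 ± 0.186 CPM in control and 0.474 ± 0.231 in knockout and did not pass (adjusted p = 0.275 by edgeR). Rnf43 missed the threshold with the acinar covariate (adjusted p = 0.0943), and Axin2, Msi1 and Lgr4 passed in each of the 13 alternatives run. With the covariate 1 gene of the list rose and 3 fell, and 1 rose without knockout library 5 or control library 7 or 10.

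Muc1 was lower by a smaller factor. It had 14.3, 12.7 and 14.3 CPM in control libraries 7, 10 and 16 and 4.24, 6.23 and 4.74 CPM in knockout libraries 4, 5 and 6. The groups did not overlap, and the closest control and knockout libraries were 2.03-fold apart. The log2 fold change was -1.44 (SE 0.16), from 13.7 ± 0.95 to 5.07 ± 1.04 CPM (SD, n = 3 each).

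Among 12 other mucins in the tables, 6 could be tested, 2 fell, 0 rose and 4 did not pass. Over all genes 12.6% fell and 11.8% rose. Muc20, a small membrane mucin, fell from 2.21 ± 0.460 to 0.960 ± 0.0865 CPM (log2 fold change -1.20, SE 0.30, adjusted p = 0.0193 by edgeR). Its call was lost when knockout library 5, knockout library 6 or control library 7 was left out and with the acinar covariate (adjusted p from 0.0524 to 0.25). Mcam, an endothelial adhesion molecule also counted among mucins, fell by 0.54 on the log2 scale (SE 0.10). Muc4, a large membrane mucin, had 66.7, 65.2 and 44.1 CPM in control and 7.98, 27.8 and 12.1 CPM in knockout libraries. Its groups did not overlap, yet the difference of -1.88 (SE 0.51) did not pass with edgeR (adjusted p = 0.0582). It passed with DESeq2 (0.00655), with limma-voom (0.00709), without robust estimation (0.0128) and without knockout library 5 (0.00388), and it was -0.83 with the acinar covariate (adjusted p = 0.416). The count of mucins that fell was 1 without knockout library 6 or control library 7 and with the covariate. The gel-forming gastric mucin Muc5ac was at 0 counts in each library, and Muc6 was at 0.752 ± 0.953 CPM in control and 0.822 ± 0.746 in knockout.

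Of 26 genes of mucin O-glycosylation and mucous cells, 19 could be tested, 4 rose, 3 fell and 12 did not pass, beside the same 11.8% and 12.6% of all genes. Their median log2 fold change was 0.06. Gcnt1, which adds the branch of core 2 O-glycans, rose from 10.04 ± 2.01 to 47.9 ± 9.88 CPM (SD, n = 3 per group; log2 change 2.24, SE 0.20), and Galnt4, an enzyme that starts O-glycans, rose by 0.87 (SE 0.09). C1galt1c1, the chaperone of the core 1 enzyme, rose by 0.49 (SE 0.08), and the secretory factor Creb3l1 fell by 0.57 (SE 0.13). C1galt1c1 (adjusted p = 0.0915) and Creb3l1 (0.176) missed the threshold with the acinar covariate, and Creb3l1 also without knockout library 6 (0.0519). When knockout library 4 or control library 7 was left out, 1 of these genes fell, and with the acinar covariate 2 rose and 0 fell. Agr2, a mucin folding enzyme of goblet cells, and Spdef, a goblet cell factor, had group means under 1 CPM and were not tested.

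Tspan8 was the least changed of the called genes. Control libraries 7, 10 and 16 had 36.0, 38.7 and 42.8 CPM, and knockout libraries 4, 5 and 6 had 24.6, 28.4 and 27.1 CPM. The groups did not overlap, though the closest libraries were 1.27-fold apart. The log2 fold change was -0.55 (SE 0.09), from 39.2 ± 3.43 to 26.7 ± 1.95 CPM (SD, n = 3 each).

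Of 28 other tetraspanins, 25 could be tested, 3 rose, 7 fell and 15 did not pass, beside 11.8% and 12.6% of all genes. Tspan2 fell from 56.5 ± 1.10 to 17.8 ± 3.33 CPM (log2 fold change -1.66, SE 0.12) and Cd63, a tetraspanin of lysosomes and secretory vesicles, from 98.4 ± 2.44 to 36.7 ± 3.84 CPM (-1.42, SE 0.08). Cd81 (0.39, SE 0.06) and Tspan31 (0.41, SE 0.07) rose, and both missed the threshold with the acinar covariate (adjusted p = 0.102 and 0.12). With 1 library left out 3 to 6 fell. The count was 3 without knockout library 4 and 4 without knockout library 6 or control library 10. Over all genes 1225 to 1433 fell with 1 library left out, against 1864 with all libraries. With the acinar covariate 0 tetraspanins rose and 2 fell, beside 5.39% and 4.6% of all genes. The median log2 fold change of the tetraspanins was -0.14, so Tspan8 was below it, as were Tspan2 and Cd63.

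**Figure D2:**
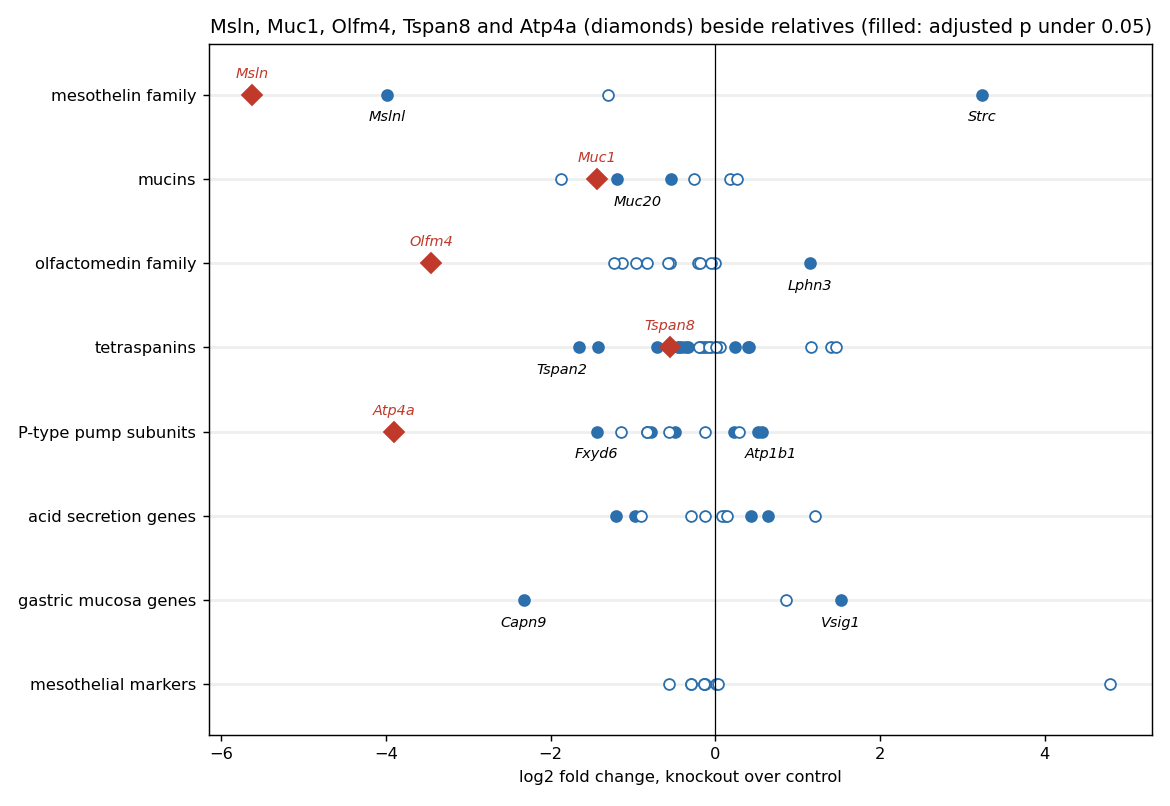
Log2 fold change of knockout over control for the chosen genes (red diamonds) and for the tested genes of each related list (circles, filled where the edgeR adjusted p was under 0.05). Msln at -5.63 and its relative Mslnl at -3.99 lie below 0, and their relative Strc at 3.24 lies above it. The other lists also spread on both sides of 0.

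The gastric pump was represented by its catalytic subunit only. Atp4a had 117, 139 and 90 counts in control libraries 7, 10 and 16 (6.04, 6.82 and 6.18 CPM) and 6, 4 and 8 counts in knockout libraries 4, 5 and 6 (0.368, 0.268 and 0.643 CPM). The groups did not overlap, and the lowest control was 9.40-fold above the highest knockout library. The log2 fold change was -3.91 (SE 0.30), from 6.34 ± 0.414 to 0.426 ± 0.194 CPM (SD, n = 3 each). Atp4b, whose product carries the catalytic subunit to the membrane in the stomach, had 0 counts in each control library and 0, 1 and 0 in the knockout. A count of 0 allows up to 3 counts, or 0.147 to 0.206 CPM in the control libraries, so no fold is given. Atp12a, the other proton and potassium pump gene, was at 0 counts in each library.

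A subunit of the related sodium pump was abundant. On the scale of counts per kilobase of exon per 1e+06 counts (RPKM), Atp4a was at 1.69 ± 0.110 in control (SD, n = 3) and Atp1b1, an accessory subunit gene of the sodium pump, at 90.5. Of 16 relatives 12 could be tested, 3 rose, 4 fell and 5 did not pass, beside 11.8% and 12.6% of all genes. Atp1b1 rose from 279 ± 13.4 to 414 ± 31.3 CPM (SD, n = 3 per group; log2 change 0.57, SE 0.08), and it missed the threshold with the acinar covariate (adjusted p = 0.073). Atp1b2, an accessory subunit of glia and neurons, fell by 0.83 (SE 0.08), and Fxyd6, a small regulator of the pump, fell from 82.6 ± 7.22 to 30.4 ± 3.98 CPM (-1.44, SE 0.11). Leaving out 1 library gave 2 to 4 that fell, with 2 without knockout library 6 or control library 10 or 16. Over all genes 1225 to 1433 fell with 1 library left out, against 1864 with all libraries. With the covariate 0 relatives rose, beside 5.39% of all genes.

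Other genes of acid secretion were mostly not past the threshold. Of 18 with a row in the count files, 11 could be tested, 2 rose, 2 fell and 7 did not pass, beside 11.8% of all genes tested that rose and 12.6% that fell. Their median log2 fold change was 0.08. Ezr, the membrane linker ezrin, rose by 0.43 (SE 0.07), and Chrm3, the muscarinic receptor that acetylcholine acts on, rose by 0.64 (SE 0.16). The potassium channel genes Kcnq1 (9.53 ± 2.49 to 4.84 ± 0.584 CPM, SD, n = 3 each, -0.97, SE 0.22) and Kcnj15 (-1.21, SE 0.35) fell. The count that fell became 0 without knockout library 6, control library 10 or control library 16 or with the acinar covariate, and 1 with limma-voom or without knockout library 4 or 5. The count that rose became 1 without knockout library 6 or any 1 of the control libraries and 0 with the covariate. Kcnq1 then had adjusted p-values of 0.0507 to 0.0599, and Kcnj15 missed the threshold in 7 of 13 alternatives (0.0577 to 0.111). Chrm3 missed it in 5 of 13 (0.0564 to 0.0974), and Ezr with the acinar covariate (0.0675). In the covariate fit the log2 fold changes were -1.30 for Kcnq1, -1.82 for Kcnj15, 0.88 for Chrm3 and 0.40 for Ezr. That fit called 5.39% of all genes higher and 4.6% lower. With 1 library left out 1153 to 1590 of all genes rose and 1225 to 1433 fell, against 1736 and 1864 with all libraries. Kcne2, the partner of Kcnq1 in parietal cells, and the intrinsic factor gene Gif were under 0.3 CPM in both groups.

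Genes of the gastric mucosa were mostly too low to test. Of 16 with a row in the count files, 12 had at least 1 count and 3 could be tested, and Tff1, Gkn1, Gkn2 and Cldn18 were at 0 in each library. Their summed level was 11.6 to 13.8 CPM in control and 11.1 to 18.1 CPM in knockout libraries, so the ranges overlapped. Capn9, a calpain of the digestive tract, fell and had 3.67, 5.59 and 6.31 CPM in control libraries 7, 10 and 16 and 0.983, 1.34 and 0.723 CPM in knockout libraries 4, 5 and 6. These groups did not overlap (log2 fold change -2.33, SE 0.32, adjusted p = 0.00136 by edgeR). Vsig1, a junction protein of the stomach, rose from 1.21 ± 0.173 to 3.49 ± 0.586 CPM (1.53, SE 0.27). With the acinar covariate Vsig1 was at 1.51 and missed the threshold (adjusted p = 0.077 by edgeR). Without knockout library 5 or control library 16, 2 genes of the list rose, and without control library 7, 2 fell.

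Of the trefoil genes only Tff2 had enough counts to be compared. Tff2 had 78.9, 76.6 and 31.0 CPM in control libraries 7, 10 and 16 and 12.0, 37.9 and 24.0 CPM in knockout libraries 4, 5 and 6. The groups overlapped, because control library 16 was below knockout library 5. The mean was 62.2 ± 27.0 CPM in control and 24.6 ± 12.9 CPM in knockout (SD, n = 3 each), and the log2 fold change was -1.34 (SE 0.58), which did not pass the threshold. The 6 libraries fell in the same order by Tff2 as by acinar share, from control library 7 at the top through 10, knockout 5, control 16 and knockout 6 to knockout 4. In the fit with the acinar covariate the Tff2 estimate was 0.35, of the opposite sign, and it did not pass there either.

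Control library 16 and knockout library 5 had acinar shares of 1.63% and 1.68%. In this pair Tff2 was at 31.0 and 37.9 CPM, Msln at 26.2 and 0.804, Olfm4 at 27.0 and 3.22, Atp4a at 6.18 and 0.268, Muc1 at 14.3 and 6.23 and Tspan8 at 42.8 and 28.4 CPM, in control and knockout respectively. These are 2 single libraries with no replicate check, and the part of acinar content in these values was not tested. With the covariate in the fit, the log2 fold change was -5.18 for Msln, -3.36 for Olfm4, -3.83 for Atp4a, -1.29 for Muc1 and -0.60 for Tspan8. These 5 were past the threshold in that fit, beside 4.6% of genes called lower, 5.39% called higher and 9.99% in either direction, and nothing is read from the count.

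**Figure D3:**
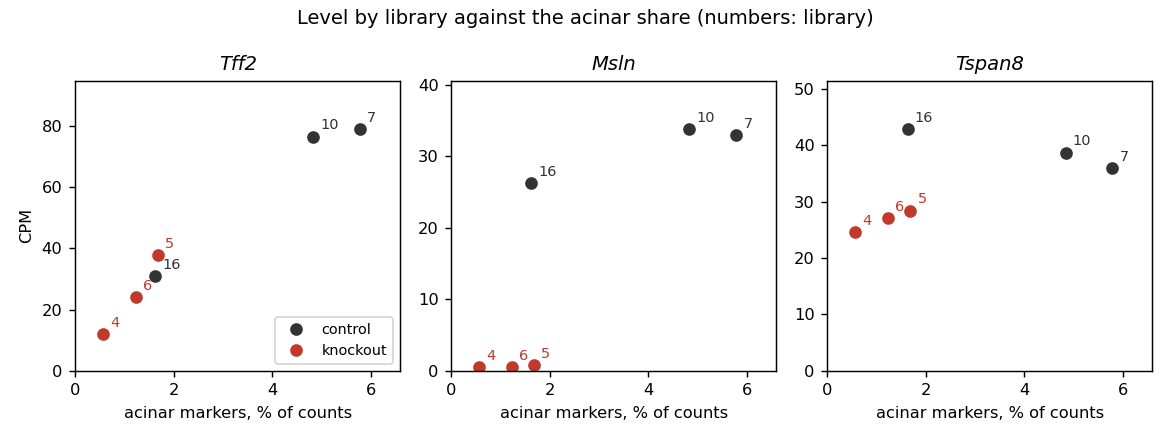
CPM of Tff2, Msln and Tspan8 in each library against the percent of counts in acinar marker genes (control black, knockout red, numbers are libraries). The 6 libraries fall in the same order by Tff2 as by acinar share. Control library 16 and knockout library 5 have shares of 1.63% and 1.68%. These are 2 single libraries, and the part of acinar content in these values was not tested.

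Tff3 had 1, 3 and 0 counts in control libraries 7, 10 and 16 and 0 in each knockout library. Both groups were at or under 3 counts per library, so no fold is given and a difference was not detectable at this depth. Of the receptors proposed for trefoil peptides, 3 could be tested, and 2 fell, beside 12.6% of all genes. Cxcr7, a chemokine scavenger receptor, was at -0.79 (SE 0.21) and Lingo3 at -1.14 (SE 0.29). Cxcr7 missed the threshold in 5 of 13 alternatives (adjusted p from 0.0617 to 0.0876) and Lingo3 in 4 of 13 (0.0503 to 0.402). Leaving out 1 library gave 0 to 1 that fell, with 0 without control library 10, where 1225 of all genes fell against 1864 with all libraries.

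Duct cells also make Muc1 and Tspan8. Of 17 duct markers tested 5 rose, 3 fell (Cldn4, Sox9 and Krt7) and 9 did not pass, beside 11.8% and 12.6% of all genes. The summed level of the duct markers was 638 to 737 CPM in control and 748 to 826 CPM in knockout libraries. This sum includes Krt18, which rose from 99.0 ± 14.6 to 152 ± 18.9 CPM (SD, n = 3 each), and Cftr, given below. It is therefore not a change shared by the markers. The part of duct cells in the Muc1 and Tspan8 values was not tested. Cldn4, a tight junction protein, fell from 30.3 ± 3.58 to 11.8 ± 1.84 CPM (SD, n = 3 each; -1.37, SE 0.14), while the chloride channel gene Cftr rose from 1.52 ± 0.158 to 58.2 ± 20.2 CPM (5.26, SE 0.36). Slc4a4, a bicarbonate transporter, rose by 0.83 (SE 0.15), and Cldn7 rose by 0.41 (SE 0.08) but missed the threshold with the acinar covariate (adjusted p = 0.185). Without control library 10 and with the acinar covariate 1 duct marker fell, and the covariate left 2 that rose. Over all genes 1225 fell without control library 10, against 1864 with all libraries. The covariate fit called 4.6% of all genes lower and 5.39% higher. Of the 32 acinar markers, edgeR called 2 lower, DESeq2 24 and limma-voom 16, beside 12.6%, 11.4% and 12.2% of all genes. Without robust estimation edgeR called 24 lower, and without control library 16 it called 20. The median log2 fold change of the acinar markers was -1.84. The acinar factors Ptf1a (-2.86, SE 0.51) and Rbpjl (-1.80, SE 0.51) were the 2 called by edgeR with all libraries. Rbpjl lost its call when knockout library 4, knockout library 6, control library 7 or control library 10 was left out and without the filter on low counts (adjusted p from 0.0551 to 0.135).

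Of the 6 compared genes, 5 (Msln, Olfm4, Atp4a, Muc1 and Tspan8) were past the genome-wide threshold in the lower direction, beside 12.6% of the 14770 genes tested. The same 5 had no overlap between the groups, beside 22% of genes tested, and Msln, Olfm4 and Atp4a were at least 4-fold lower, beside 0.494%. Since this contrast chose the genes, nothing is read from these counts. In the authors' deposited table the log2 fold changes were -5.62 for Msln, -3.88 for Atp4a, -3.44 for Olfm4, -1.42 for Muc1, -1.31 for Tff2 and -0.54 for Tspan8. The count of 5 held in each of the 13 alternatives.

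**Figure D4:**
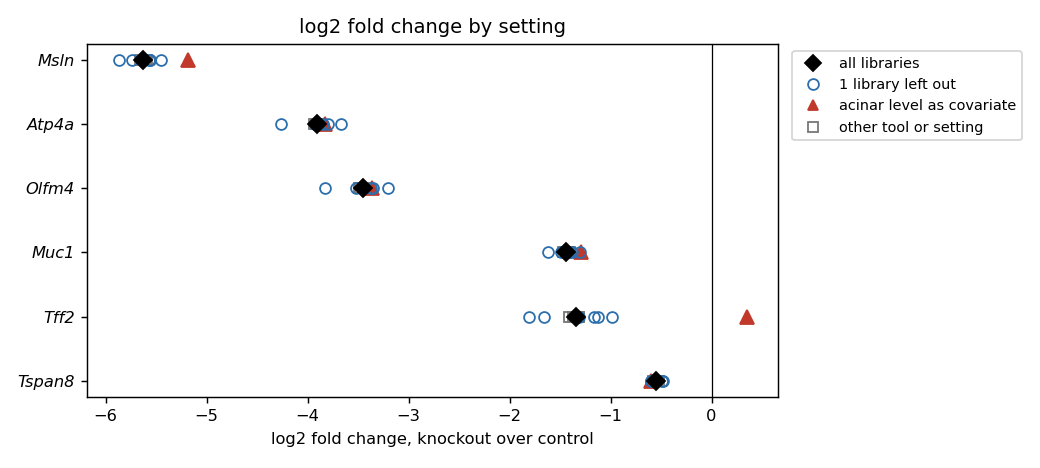
Log2 fold change of knockout over control for the 6 compared genes with all libraries (black diamonds), with 1 library left out (blue circles), with the acinar level as a covariate (red triangles) and under other tools or settings (grey squares). Msln stays between -5.87 and -5.18, and only Tff2 crosses 0, to 0.35 with the covariate.

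Levels were compared between the genes only per length, as RPKM with exon lengths of a GRCm38 annotation. In control islets the order was Tff2 at 106 ± 46.2, Tspan8 at 23.0 ± 2.02, Msln at 10.1 ± 1.35, Olfm4 at 8.26 ± 0.833, Muc1 at 5.86 ± 0.405 and Atp4a at 1.69 ± 0.110 RPKM (SD, n = 3). Msln (8.55 to 11.0) and Olfm4 (7.47 to 9.13) overlapped in range, and the other neighbours in this order did not. In knockout islets the order was Tff2 at 42.2 ± 22.1, Tspan8 at 15.7 ± 1.15, Muc1 at 2.16 ± 0.442, Olfm4 at 0.752 ± 0.297, Msln at 0.202 ± 0.0535 and Atp4a at 0.113 ± 0.0516 RPKM. There the ranges of Msln and Atp4a overlapped. Msln thus went from the third to the fifth place, below Muc1 and Olfm4.

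The spread between libraries of 1 genotype also differed among the genes. The biological coefficient of variation fitted by edgeR was 9.48% for Tspan8, 13.8% for Msln, 14.8% for Muc1, 16.6% for Olfm4, 18.7% for Atp4a and 47.9% for Tff2, where the common value over all genes was 14.2%. Tff2 was the most variable, with a coefficient of variation of 43.4% within the control and 52.4% within the knockout group. Within the knockout group Atp4a (45.5%) and Olfm4 (39.5%) varied more than within the control group (6.53% and 10.1%), at counts of 4 to 8 and 24 to 48 per library.

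Genes with the most similar profiles were ranked by the root mean square distance between log2 CPM profiles over the 6 libraries, each centred on its mean, among 14079 genes of at least 1 CPM. Olfm4 was closest to the insulin gene Ins1 (distance 0.19 log2 units), whose log2 fold change was -3.50 and whose counts may be shared with its near copy Ins2, and next to the galanin receptor gene Galr1 (0.29) and Cyp4f39 (0.33). Atp4a was closest to Mcoln3 (0.29), a lysosomal cation channel gene, then to Gm4791 (0.46) and Mlph (0.47). Muc1 was closest to Spc25 (0.0835), Pirt (0.11) and Emid1 (0.12). For Msln the closest were the potassium channel gene Kcnf1 (0.74), Mlph (0.87) and Mcoln3 (0.95), whose log2 fold changes were -4.59, -3.86 and -4.07. These distances are a description over the same 6 libraries, and no p-value is given. They include the difference between the groups, which chose the genes, so a small distance can reflect a similar fold change alone.

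The genes next to the chosen ones on the chromosome were tested as a further feature that the choice did not use. Of the 21 neighbouring protein-coding genes that could be tested (up to 2 on each side, in the order of GRCm38.p6), 1 rose and 7 fell, Mslnl included, with a median log2 fold change of -0.20. The background was 11.8% higher and 12.6% lower. The neighbours lay 0.26 to 6632 kilobases away, and those of Muc16, Atp4b and Tff3, which were not compared, were counted too. Tfdp1, which rose, and Fam70b, which fell, are both neighbours of Atp4b. A link between the neighbours and the chosen genes was not tested. Tff1, which lies beside Tff2 and Tff3, was at 0 counts in each library.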

How the data were processed

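Whole-number read counts per gene were deposited by the authors for each of 6 libraries (TruSeq, HiSeq2000, single-end reads of 100 bp per the labels' protocols). The build was mm9, and the tools named were DESeq, TopHat2 2.1.0, Cufflinks 2.0.2 and bcl2fastq 1.8.4, per the submitters' processing notes. The sources used here do not name the counter, the annotation or the use of strand. The authors' deposited table holds group means of scaled counts (a signal), the fold change as a ratio and as log2, and p-values, per the file headers.

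The genes, gene lists and naming rule were chosen with earlier results of these data known. With edgeR 4.0.16 in R 4.3.3, filterByExpr (minimum count 10, minimum total 15) left 14770 of 23284 genes, TMM factors were 0.988 to 1.02, and groups were compared by the robust quasi-likelihood F test, its p-values adjusted by Benjamini-Hochberg over all genes (threshold 0.05). The unadjusted p was under 0.05 for 5537 genes. SEs come from the same fit, and CPM use TMM-scaled library sizes. Of each list, up to 4 genes with the smallest p past the threshold were named, or the 2 most abundant where none passed. A gene that this rule also named is not reported here. Lgr5, Muc4, Muc5ac, Muc6, Otoa, Agr2, Spdef, Kcne2, Gif, Atp12a, Wt1, Upk3b, Calb2, Sox9, Krt7, Krt18 and the gastric genes at 0 fall outside this rule and were chosen after their values were seen. RPKM used GENCODE M21 exon lengths of GRCm38, since the sources used here do not give the authors' gene models. Alternatives were DESeq2 1.42.0, limma-voom (limma 3.58.1), upper-quartile factors, no filter, no robust estimation, the acinar marker level as covariate, acinar genes left out of library sizes, and leaving out each library. The fit was tested on simulated data. No replicates were merged, since chi-square per degree of freedom between them was 15.9 to 41.5. Intervals and limits for 0 counts cover counting error only.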

Additional observations from a re-analysis of the deposited data

How the results depend on the processing

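The contrast of knockout and control chose the genes, so their calls are a description and nothing is read from them. Over the 13 alternatives the number of the chosen genes called lower was 5 each time. Msln (-5.87 to -5.18), Atp4a (-4.27 to -3.67), Olfm4 (-3.83 to -3.21), Muc1 (-1.62 to -1.29) and Tspan8 (-0.60 to -0.48) kept their direction and their side of the threshold. Tff2 ranged from -1.81 to 0.35 and passed in none of the alternatives. Its sign reversed (0.349) when the acinar marker level entered as covariate, and the cause was not tested. Over all genes, 1736 were higher and 1864 lower. With the acinar covariate 796 were higher and 680 lower, in a fit with 1 fewer residual degree of freedom. When 1 library was left out, 1153 to 1590 genes were higher and 1225 to 1433 lower, and the lowest counts were those without control library 10. No paired analysis was possible because the groups share no replicate number. Depth limits Atp4b and Tff3, which had at most 3 counts in any library, and the knockout values of Msln and Atp4a, which rest on 4 to 12 counts per library.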
